A study of Mus musculus with 2 samples.

Results

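The genes described here handle the fat of circulating lipoproteins and the fatty acids taken up from it. They are Lpl, Angptl4, Vldlr, Cd36, Slc27a1, Fabp3, Fabp4, Fabp5 and Mgll, and their rows were found by gene name. All 9 were among the 44291 genes of the RNA-seq files. Levels are in FPKM, read numbers scaled to the exon length of the gene and to the depth of the library. Of the 9, 7 had a mean of at least 1 FPKM over the libraries, the filter used for all genes below, which 13401 genes passed.

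The libraries came from wild-type primary mouse fibro-adipogenic progenitors (FAPs), the resident mesenchymal cells of muscle, which can form adipocytes. One library was made from FAPs treated with platelet-rich plasma (PRP) and 1 from FAPs treated with vehicle, called control. Both cultures were then kept in the same adipogenic induction medium, which held 20% fetal bovine serum, 0.5 mM of the phosphodiesterase inhibitor IBMX, 0.25 μM of the glucocorticoid dexamethasone and 10 μg/ml insulin. The labels name the treatment as PRP. The text of the study instead describes exosomes (small vesicles) isolated from the PRP of young human donors as the treatment before sequencing. The study's methods describe sorting of the cells from hind limb muscle by surface markers and C57BL/6 mice, and the hour of harvest and the number of animals behind each culture are not given in the sources used here. As each group had 1 library, no difference below has a replicate check and none carries a p-value.

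Lipoprotein lipase, encoded by Lpl, splits the triglycerides of chylomicrons and very low density lipoproteins into fatty acids and monoacylglycerol. It is secreted by adipocytes and muscle cells and is held on the capillary wall by the anchor protein GPIHBP1, and ANGPTL4 is a secreted protein that inactivates it. The released fatty acids enter cells with the help of the scavenger receptor CD36 and of transport proteins such as SLC27A1 (FATP1), and small cytosolic fatty acid binding proteins (FABPs) carry them inside the cell. VLDLR binds triglyceride-rich lipoproteins at the cell surface, and monoacylglycerol lipase, encoded by Mgll, releases the last fatty acid from the glycerol backbone. Several of these genes are known targets of the nuclear receptor PPARγ in adipocytes.

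Reads assigned to genes numbered 40120843 with PRP and 34139741 in control, which makes the PRP library 1.18 times as deep. Genes of the mitochondrial genome took 2.06% of the summed FPKM with PRP and 3.70% in control. The adipocyte genes by which the cells would be known as mature fat cells were low in both libraries: 3 of 8 markers passed the filter, the highest being Adipoq at 5.49 FPKM with PRP and 5.22 FPKM in control, followed by Cfd with 2.92 and 2.22 FPKM. The third, Plin1, was lower with PRP, at 1.73 against 2.10 FPKM. All 3 had an interval of the ratio that included 1, and Lep, at 0.0149 and 0.0524 FPKM, was near 0. All 6 FAP markers passed the filter, each lower in the PRP library with an interval below 1, with a summed level of 179.3 FPKM with PRP and 247.6 FPKM in control. The most abundant were Pdgfrb (68.5 and 88.7 FPKM) and Ly6a (59.9 and 66.4 FPKM), and Dpt was more than 2-fold lower (18.8 and 50.2 FPKM).

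As a group, the 9 genes had almost the same sum of deposited FPKM in both libraries, while single genes differed in either direction. None of the 7 members that passed the filter was at least 2-fold different, where 2.83% of all genes that passed it were. Their summed level, all 9 included, was 270.3 FPKM with PRP and 269.8 FPKM in control. Within that sum the 2 genes with the highest FPKM, Fabp3 and Lpl, were lower in the PRP library, while Fabp5, Fabp4 and Angptl4 were higher. A sum of FPKM depends on the exon length used for each gene. By share of all assigned reads, the 9 genes took 0.124% with PRP and 0.132% in control. Of the 7 members, 5 were higher and 2 lower, where 50.9% of all genes that passed the filter were higher. The 5 include Cd36, whose ratio had a counting interval that included 1. The median log2 fold change, computed as log2(PRP FPKM + 1) minus log2(control FPKM + 1), was 0.16, against 0.01 for all genes. Fewer cells of a type and less RNA per cell cannot be told apart in such bulk libraries.

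**Figure D1:**
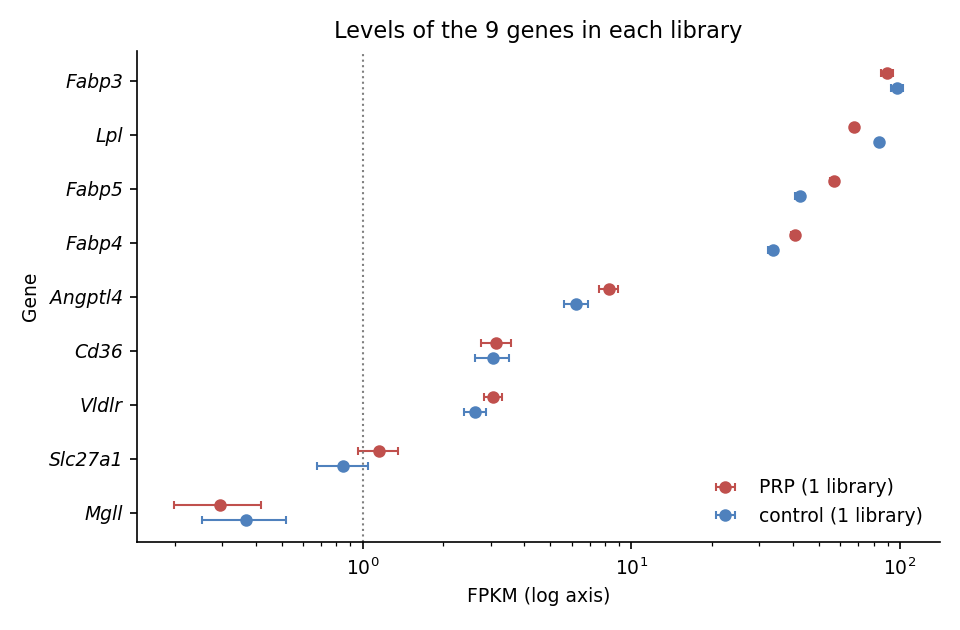
FPKM of the 9 genes in the PRP library (red) and the control library (blue) on a log axis, with bars for the exact Poisson 95% counting interval and a dotted line at 1 FPKM. Fabp3, Lpl, Fabp5 and Fabp4 lie above 33 FPKM in both libraries, and the other 5 genes lie below 9 FPKM.

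Each ratio below is that of PRP FPKM over control FPKM, with the exact Clopper-Pearson 95% interval that the numbers of sequenced fragments give. These intervals cover counting error only and compare the 2 libraries, not the treatments. Of the 12369 filtered genes with whole read numbers, 26.1% had an interval wholly above 1 and 26.1% one wholly below 1. Of the 7 filtered members, 4 lay above 1 (Angptl4, Vldlr, Fabp4 and Fabp5), 2 below it (Lpl and Fabp3) and 1 across it (Cd36). An interval off 1 was common in these libraries, at 52.2% of the 12369 genes. The width of an interval depends on the number of reads, and the members were not compared with genes of like read number.

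**Figure D2:**
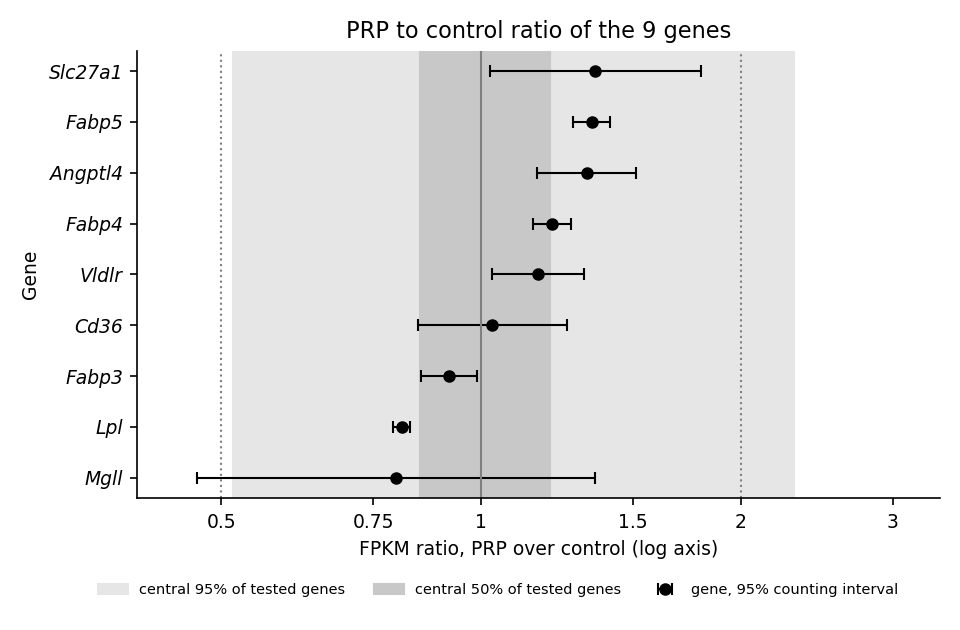
Ratio of PRP to control FPKM of each gene on a log axis, with its 95% counting interval, over the central 50% (dark grey) and 95% (light grey) of the genes that passed the filter, with dotted lines at 0.5 and 2. Ratios run from 0.798 for Mgll to 1.35 for Slc27a1, and the intervals of Cd36 and Mgll include 1.

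The lipase and its inhibitor differed in opposite directions. Lpl (ENSMUSG00000015568, GRCm38 chromosome 8, 68880491 to 68907448, plus strand) had 67.4 FPKM with PRP and 83.3 FPKM in control, from 28339 and 29788 reads. It was lower in the PRP library, with a ratio of 0.810 (0.791 to 0.828) and a log2 fold change of -0.30. Among the genes that passed the filter, 33.0% lay farther from 0 than this value. Angptl4 (ENSMUSG00000002289, chromosome 17, 33773750 to 33781830, minus strand) had 8.26 FPKM with PRP and 6.23 FPKM in control, from 1173 and 753 reads. It was higher, with a ratio of 1.33 (1.16 to 1.51) and a log2 fold change of 0.36, and 26.3% of the filtered genes lay farther from 0. By deposited FPKM the level of the inhibitor gene was 12.2% of that of the lipase gene with PRP and 7.48% in control. With the length of the principal coding transcript of each gene in place of all its annotated exons, these shares were 5.15% and 3.14%. The change of the quotient between the libraries depends neither on these lengths nor on how the libraries are scaled, and the quotient was 1.64 times as large in the PRP library (95% counting interval 1.43 to 1.87).

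Of the other genes that act on lipoprotein lipase, few were expressed. Of 11 listed genes for its assembly and inhibition, 10 were in the files and 3 passed the filter, all 3 lower in the PRP library with intervals below 1 and none of them 2-fold. They were Sel1l, which helps the lipase leave the endoplasmic reticulum (21.7 FPKM with PRP, 30.5 FPKM in control, ratio 0.712), and the proprotein convertase genes Pcsk6 (7.14 and 9.79 FPKM, ratio 0.729) and Furin (3.17 and 4.78 FPKM, ratio 0.662), whose products can cleave the lipase and ANGPTL proteins. The maturation factor gene Lmf1 had 0.490 and 0.491 FPKM. The anchor gene Gpihbp1, which endothelial cells express, had 0.0195 FPKM with PRP and 0.0229 FPKM in control, and the other inhibitor gene Angptl8 had 0.0576 and 0.0677 FPKM. Among other lipases, Lipa, which encodes the lysosomal acid lipase, stood higher with PRP, with 6.35 against 3.86 FPKM (ratio 1.64, 1.46 to 1.85), and the phospholipid transfer protein gene Pltp was lower at 2.63 against 4.36 FPKM (ratio 0.603, 0.480 to 0.756). They were the only 2 of 7 listed genes of that group to pass the filter.

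The lipoprotein receptor gene Vldlr (ENSMUSG00000024924, chromosome 19, 27216484 to 27254231, plus strand) had 3.06 FPKM with PRP and 2.63 FPKM in control, from 1235 and 903 reads. It was slightly higher in the PRP library, with a ratio of 1.16 (1.03 to 1.32) and a log2 fold change of 0.16, and 58.5% of the filtered genes lay farther from 0. The list of other lipoprotein receptors and sorting proteins, which holds relatives of Vldlr and also unrelated receptors such as Scarb1 and Lsr, stood mostly on the opposite side. Of 10 that passed the filter, 9 were lower and 1 (Lsr) was higher, 7 of the 9 with whole reads had an interval below 1, none was 2-fold different, and the median log2 fold change was -0.28. The interval of Lsr ran from 0.729 to 1.79, and 44.7% of its exon length is shared with other genes. The most abundant, Lrp1, a large endocytic receptor for remnant particles, had 62.8 FPKM with PRP and 90.9 FPKM in control (ratio 0.692, 0.679 to 0.704). Lrpap1, which encodes the chaperone of these receptors, had 57.2 and 64.1 FPKM (ratio 0.892).

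Cd36 (ENSMUSG00000002944, chromosome 5, 17781690 to 17888801, minus strand), the fatty acid translocase, had 3.15 FPKM with PRP and 3.05 FPKM in control, from 453 and 374 reads. The ratio of 1.03 had an interval from 0.845 to 1.26, so no difference was detectable at this depth, and a change of up to 1.26-fold upwards lies inside that interval. The transport protein gene Slc27a1 (ENSMUSG00000031808, chromosome 8, 71568882 to 71587302, plus strand) had 1.15 FPKM with PRP and 0.848 FPKM in control, from 269 and 169 reads. Its mean of 0.999 FPKM fell just short of the filter, while its ratio of 1.35 (1.02 to 1.80) was the highest of the 9. The pseudocount of 1 understates this difference, as the log2 fold change was 0.22 and the log2 of the plain ratio 0.44.

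Cd36 and Slc27a1 were thus minor transcripts beside the binding proteins, and the other transport protein genes were low as well. Slc27a4 had 2.84 FPKM with PRP and 3.31 FPKM in control, with an interval of the ratio from 0.717 to 1.03. Slc27a3 stood lower with PRP, with 0.689 against 1.36 FPKM (ratio 0.508, 0.325 to 0.782). Slc27a5 was listed at 0 in both. Of the genes of caveolae, the membrane pits in which CD36 resides, Cavin1 was far more abundant, with 279.8 FPKM with PRP and 260.9 FPKM in control, and Cav2 was as low as the transport proteins, with 2.15 and 1.60 FPKM. Cav1, the coat protein gene, stood higher with PRP, with 13.5 against 8.90 FPKM (ratio 1.52, 1.36 to 1.70), as did Slc43a3, which encodes a fatty acid flux protein (16.04 against 11.4 FPKM, ratio 1.41, 1.29 to 1.54). Zdhhc5, which encodes a palmitoyltransferase that acts on CD36, had 21.1 and 21.4 FPKM, with an interval from 0.925 to 1.05. Across the 9 genes of this group that passed the filter, 6 were higher and 3 lower, none 2-fold, with a median log2 fold change of 0.18.

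The 3 binding protein genes were, with Lpl, the abundant members, and they did not share a direction. Fabp3 (ENSMUSG00000028773, chromosome 4, 130308595 to 130315463, plus strand), the form typical of heart and muscle, had 89.5 FPKM with PRP and 97.6 FPKM in control, from 2956 and 2741 reads. It was a little lower in the PRP library, with a ratio of 0.918 (0.852 to 0.988) and a log2 fold change of -0.12, and 67.3% of the filtered genes lay farther from 0. Fabp4 (ENSMUSG00000062515, chromosome 3, 10204088 to 10208576, minus strand), the adipocyte form also known as aP2, had 40.7 FPKM with PRP and 33.6 FPKM in control, from 7322 and 5150 reads. Its ratio was 1.21 (1.15 to 1.27) and its log2 fold change 0.27. Fabp5 (ENSMUSG00000027533, chromosome 3, 10012548 to 10016607, plus strand), the epidermal form, lies near Fabp4 on the same chromosome and had 56.8 FPKM with PRP and 42.3 FPKM in control, from 8129 and 5150 reads. The ratio of 1.34 (1.28 to 1.41) gave a log2 fold change of 0.42, the farthest from 0 among the members, and 20.6% of the filtered genes lay farther from 0.

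**Figure D3:**
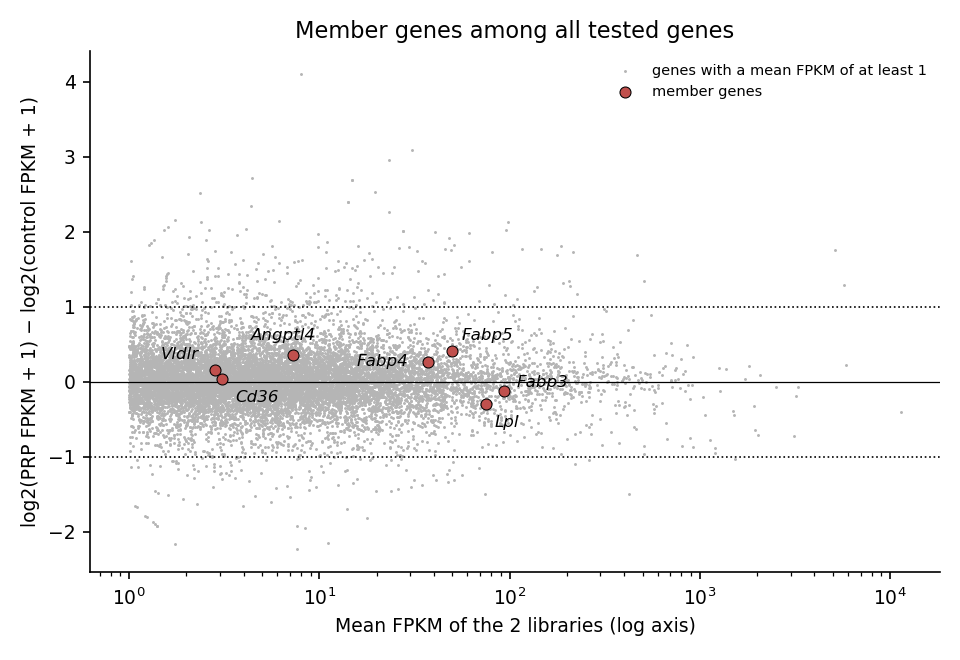
Log2 fold change on the scale of log2(FPKM + 1), PRP minus control, against the mean FPKM of the 2 libraries (log axis) for the 13401 genes that passed the filter (grey), with the 7 members among them in red and dotted lines at 2-fold. All 7 lie between -0.30 and 0.42.

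The make-up of the binding protein transcripts differed accordingly. Fabp3 held 47.9% of the summed FPKM of the 3 genes with PRP and 56.2% in control, Fabp5 held 30.4% and 24.4%, and Fabp4 held 21.7% and 19.4%. Relative to Fabp3, Fabp5 was 1.46 times as high in the PRP library as in the control library (1.34 to 1.60) and Fabp4 1.32 times (1.20 to 1.44). Fabp5 was likewise 1.11 times as high relative to Fabp4 (1.03 to 1.19). The other genes for intracellular proteins that bind lipids or their acyl-CoA esters stood mostly lower with PRP, 5 of the 6 that passed the filter, and their median log2 fold change was -0.28. The most abundant of them were Dbi, which encodes the acyl-CoA binding protein (92.7 FPKM with PRP, 135.7 FPKM in control, ratio 0.683, 0.649 to 0.719), and Acbd3, which encodes a Golgi adaptor protein with an acyl-CoA binding domain (58.9 and 64.8 FPKM, ratio 0.908). The retinoic acid binding protein gene Crabp2 was the lowest relative to control (1.06 and 2.22 FPKM, ratio 0.477, 0.289 to 0.772). Fabp7 had 1.75 and 1.69 FPKM, and Fabp2 and Fabp6 had no read in either library.

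The order of these levels turned on the exon length by which the deposited values were divided. That length, inferred from the whole read numbers it gives back, is the sum of all annotated exons of a gene, merged over its transcripts, and for Fabp4 and Fabp5 the annotation (GENCODE M21) includes a retained-intron transcript. The merged length was 4489 bases for Fabp4 against 896 bases for its principal coding transcript, a factor of 5.01, and 3567 against 987 bases for Fabp5, a factor of 3.61. Fabp3 has 1 transcript and 823 bases under both rules, and Lpl has 10478 against 4115 bases, a factor of 2.55. The median factor of 10378 coding genes that passed the filter was 1.34, and 1.17% of them reached the factor of Fabp4. With the principal length in place of the merged length, Fabp4 came to 203.7 with PRP and 168.4 in control, on the FPKM scale. On the same scale Fabp5 came to 205.3 and 152.8, Lpl to 171.7 and 212.04, and Fabp3 stayed at 89.5 and 97.6. Fabp3 was thus the highest of the members by deposited FPKM in both libraries and the fourth by principal length, where Fabp5 led in the PRP library, with an interval that overlapped that of Fabp4, and Lpl led in the control library. The share of Fabp3 among the 3 binding protein genes was then 18.0% with PRP and 23.3% in control. The rescaling takes all reads of a gene as coming from the principal transcript, which the gene totals cannot show. It leaves the PRP to control ratio of each gene as it was, but not that of a sum over genes.

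**Figure D4:**
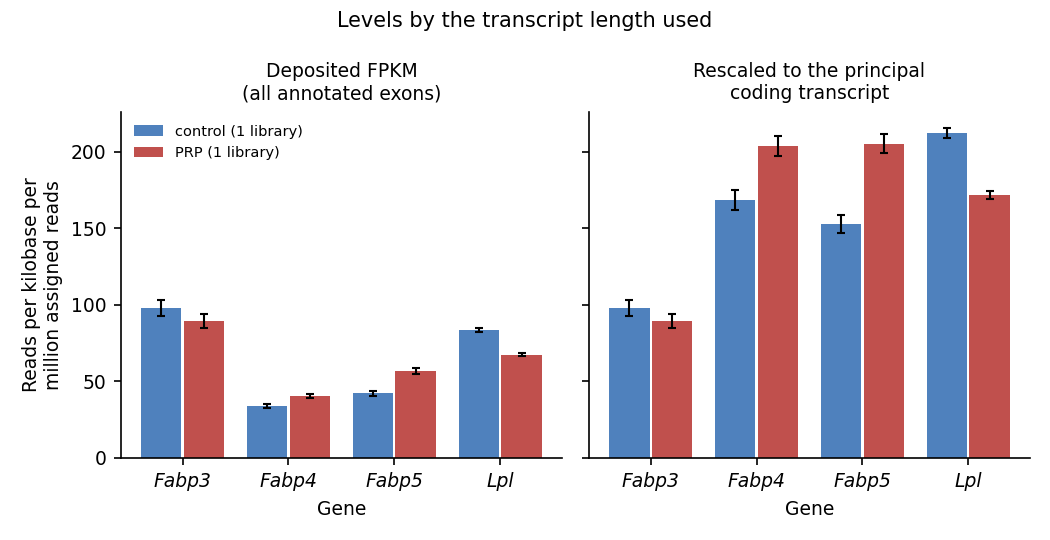
Levels of Fabp3, Fabp4, Fabp5 and Lpl in the control (blue) and PRP (red) library, as deposited FPKM over all annotated exons (left) and rescaled to the principal coding transcript (right), with exact Poisson 95% counting intervals as bars. Fabp3 is the tallest pair on the left and the shortest on the right.

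Among the other neighbours in the order of levels, Cd36 and Vldlr had overlapping counting intervals in both libraries under both lengths, and they changed places with the length used. Angptl4 stood above this pair and Slc27a1 below it in each case, with Mgll lowest.

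Reads of 2 of the binding protein genes can be shared with near-identical copies. Processed pseudogenes matched the principal transcript of Fabp3 (Fabp3-ps1, 99.3% identity over 402 bases) and that of Fabp5 (Gm6166, 98.3% over 409 bases, and Gm14328, 97.3% over 408 bases). They held 27, 34 and 8 reads in the PRP library and 42, 14 and 2 reads in the control library, few beside those of their parent genes. Fabp3 also shares 161 of its 823 exon bases (19.6%) with genes on the opposite strand, of which Zcchc17 had 25.7 FPKM with PRP and 24.4 FPKM in control. The kit keeps the strand, but the strand setting of the counting is not given in the sources used here, so the value of Fabp3 is uncertain to that extent.

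Mgll (ENSMUSG00000033174, chromosome 6, 88724412 to 88828360, plus strand) was the lowest member, at 0.295 FPKM with PRP and 0.369 FPKM in control, from 60 and 64 reads. Its ratio of 0.798 had an interval from 0.468 to 1.36, which includes no change. The enzymes that act before it on stored triglyceride were expressed at higher levels. Of the 9 genes of intracellular lipolysis that passed the filter, 6 were higher and 3 lower, none 2-fold, with a median log2 fold change of 0.07. Abhd5, the activator of adipose triglyceride lipase, stood higher with PRP, with 9.15 against 6.89 FPKM (ratio 1.33, 1.21 to 1.46), and G0s2, the inhibitor of the same lipase, was lower at 12.5 against 24.99 FPKM (ratio 0.499, 0.420 to 0.592). The log2 fold change of G0s2 was -0.95, just inside the 2-fold line at a pseudocount of 1. The lipase gene itself, Pnpla2, had 7.23 and 6.27 FPKM with an interval of the ratio from 0.997 to 1.34. The hormone-sensitive lipase gene Lipe was lower at 1.51 against 2.01 FPKM (ratio 0.752, 0.611 to 0.924). Abhd12, another monoacylglycerol hydrolase gene, had 11.4 and 10.8 FPKM, far above Mgll in both libraries.

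The microRNAs let-7f and miR-16 were studied by the authors as cargo of such exosomes, so the 3'UTRs of the members were searched for their seed matches. A microRNA pairs with its targets mainly through the seed, its bases 2 to 8, shown in capitals in the mature mouse sequences as RefSeq gives them:
mmu-let-7f-5p: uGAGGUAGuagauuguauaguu
mmu-miR-16-5p: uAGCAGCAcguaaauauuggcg
The letters searched on the transcript strand were therefore CTACCTC for let-7f and TGCTGCT for miR-16, in the 3'UTR of the principal transcript of each gene. Of the 9 members, 1 held a let-7f match and 0 held a miR-16 match. Among 10211 coding genes that passed the filter, 8.90% and 22.8% held one. The member with the match did not pass that filter, so no filtered member held a match of either kind. The match was in Mgll, 950 bases after the stop codon of a 3'UTR of 2584 bases, at chromosome 6, 88826726 to 88826732 on the plus strand of GRCm38, shown with the match in capitals:
Mgll: ttgccagtagcacagCTACCTCt
The 3'UTRs of the members ran from 238 bases in Fabp3 to 5091 bases in Vldlr, and shorter ones have less room for a match. Among the 10211 genes the median length was 1002 bases. The 3'UTRs of Lpl, Angptl4, Vldlr, Cd36 and Mgll were longer than this, and those of the other members shorter. A match is a description of letters, and the reads of Mgll were too few for its interval to leave 1. The absence of other matches says only that these letters are not in these annotated stretches.

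Receptors and shared targets of the PPAR family were set beside the members. Pparg had 8.69 FPKM with PRP and 6.55 FPKM in control, with a ratio of 1.33 (1.15 to 1.53). Ppard, the ubiquitous form, had 8.15 and 8.14 FPKM, with an interval of the ratio from 0.921 to 1.09, and Ppara had 0.149 and 0.122 FPKM. Ncor1, which encodes a corepressor, had 20.0 against 22.5 FPKM (ratio 0.888). Of 13 PPAR targets outside the members that passed the filter, 4 were higher and 9 lower, with a median log2 fold change of -0.20. The 2 that were at least 2-fold higher were Plin2, which coats lipid droplets (112.4 against 54.2 FPKM, ratio 2.07, 1.99 to 2.16), and Acot2, a mitochondrial acyl-CoA thioesterase gene (8.84 against 3.69 FPKM, ratio 2.39, 1.97 to 2.93). Pdk4, which encodes a kinase that holds back glucose oxidation, was also higher (13.3 against 9.24 FPKM, ratio 1.44, 1.30 to 1.60), whereas the β-oxidation genes Acadvl (9.90 against 14.9 FPKM, ratio 0.665), Acaa2 (12.05 against 17.3 FPKM, ratio 0.695) and Acadm (8.16 against 11.1 FPKM, ratio 0.733) were lower. Of the exon length of Acadvl, 42.9% is shared with other genes. Adipoq and Cidec of this list are also among the adipocyte markers.

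**Figure D5:**
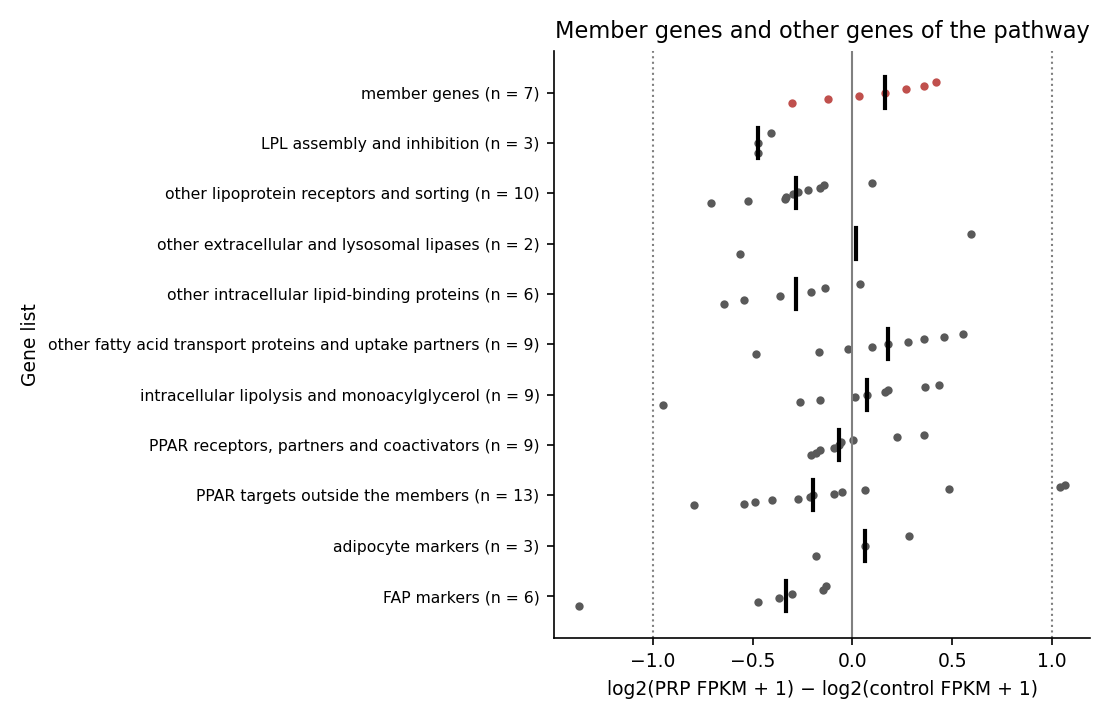
Log2 fold change of each gene that passed the filter, on the scale of log2(FPKM + 1), PRP minus control, for the members (red), 8 lists of other genes of the pathway and 2 marker lists, with a black line at each median and dotted lines at 2-fold. The member median of 0.16 and the -0.28 of the other lipoprotein receptors lie on opposite sides of 0.

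Over all 8 lists, 61 of 101 genes passed the filter, 22 of them higher and 39 lower with PRP, and the median log2 fold change was -0.16. On the scale of log2(FPKM + 1), Plin2 and Acot2 were the 2 genes at least 2-fold higher, and none was 2-fold lower. Of all 13401 genes that passed the filter, 50.9% were higher, 268 at least 2-fold higher and 111 at least 2-fold lower. By plain ratio, without the pseudocount, Crabp2 (0.477) and G0s2 (0.499) were below 0.5. Most of the listed markers of other cell types did not pass the filter. Of 8 macrophage markers 2 passed the filter, Cd68 higher in the PRP library (4.56 against 2.31 FPKM) and Lyz2 lower (4.91 against 7.57 FPKM), while Adgre1 had 0.0308 and 0.0543 FPKM and Ptprc 0.0109 and 0.0192 FPKM, and the summed level of the list was 11.2 and 11.1 FPKM. Of 7 endothelial markers 2 passed, both higher in the PRP library. Kdr was more than 2-fold higher (4.23 against 1.499 FPKM, ratio 2.82, 2.43 to 3.28), and Tek had 4.73 against 3.56 FPKM (ratio 1.33, 1.14 to 1.55). Pecam1 had 0.188 and 0.0470 FPKM and Cdh5 0.0949 and 0.0976 FPKM, and the summed level of the endothelial list was 9.79 and 5.94 FPKM. Of 8 muscle markers 4 passed, with a summed level of 25.5 and 23.2 FPKM, Acta1 (15.1 and 11.1 FPKM) and Mb (3.63 and 4.81 FPKM) being the highest and Pax7 and Myog at 0 in both libraries. Of 5 platelet markers 1 passed (Gp1bb, whose exons mostly overlap another gene), and Ppbp and Gp9 were at 0 in both. The part of these cell types in the differences of the members was not tested.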

How the data were processed

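Stranded mRNA libraries were made from TRIzol extracts. Per the labels and the study's methods, the authors trimmed reads with fastp 0.23.4, aligned them to mm10 with STAR 2.5.3a and used featureCounts to count reads over genes. The unit deposited is FPKM, which the authors computed in each library. The annotation release, the step from counts to FPKM and the strand and multi-mapping settings are not given in the sources used here.

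Gene models came from GENCODE M21 (GRCm38, the same build), which held 93.7% of the gene identifiers. FPKM multiplied by merged exon length gave whole reads, within 0.001 reads, in both libraries for 93.8% of the 28160 genes above 0 with a length, and for all 9 members. Even read numbers were in excess (79.3% and 80.3% of genes with up to 8 reads), as when both mates are counted, so intervals used reads divided by 2. They cover counting error only and make no allowance for PCR duplicates. No test for counts was run, since each group has 1 library.

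The log2 fold change used a pseudocount of 1, which understates the change of low genes, and a filter at a mean FPKM of 1. Called means at least 2-fold. The intervals of quotients between genes are exact conditional ones. The principal transcript was the APPRIS principal coding transcript, the longest in a tie. Copies were sought with blastn 2.17.0 (at least 95% identity over 300 bases). The members and the gene lists were chosen with earlier results of these data known. In each list the 2 genes of highest mean FPKM and those at least 2-fold different were named first, then others of the list, except a few genes that are not reported here. Python 3.11.15, NumPy 2.4.6, pandas 2.3.3, SciPy 1.17.1 and matplotlib 3.10.9 were used, and the procedures were tested on simulated data. Alternatives were other pseudocounts, filters, scalings and thresholds and, chosen after seeing the data, the principal transcript length and the removal of overlapping genes.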

Additional observations from a re-analysis of the deposited data

How the results depend on the processing

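No paired analysis was possible because the groups have 1 library each, and none could be left out. The log2 fold change of each of the 9 genes kept its sign under the 5 alternative pseudocounts and scalings, 45 values in all. A change of pseudocount cannot turn a sign, so only the scalings could have done so. The widest ranges were 0.07 to 0.40 for Slc27a1 and -0.25 to -0.02 for Mgll, the 2 genes under the filter. Lpl ranged from -0.33 to -0.29 and Fabp5 from 0.38 to 0.42, and Cd36 came as near to 0 as 0.01. The median of the members ranged from 0.08 (pseudocount 5) to 0.27 (filter at a mean FPKM of 5), and no member was at least 1.5-fold different. The filter at 5 left 5 members, of which 3 were higher. The intervals of 7 of the 9 members excluded 1 on fragments and on single reads alike. Intervals on single reads are narrower, so they could only have added to these 7. The number of all genes at least 2-fold different came to 739 at pseudocount 0.1, to 113 at pseudocount 5, to 210 when the filter was 5, to 1436 at a 1.5-fold and to 26 at a 4-fold threshold, against 379. By principal transcript length, chosen after seeing the data, the shares among the 3 binding protein genes were 18.0%, 40.9% and 41.2% for Fabp3, Fabp4 and Fabp5 in the PRP library and 23.3%, 40.2% and 36.5% in the control library. Depth limits the result for Mgll, Slc27a1 and Cd36, which had 60 to 453 reads.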
